A study of Mus musculus with 5 samples.

Results

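The genes described here encode the proteasome: every protein-coding gene of the count tables whose symbol begins with Psma, Psmb, Psmc, Psmd, Psme, Psmf or Psmg followed by a number. The symbols were matched in GENCODE M21. The rule reads no measured value, though it was chosen with earlier results of these data known. It found 50 of the 49315 genes, and they were grouped by role. There were 14 genes of the 20S core, 5 immune subunits (Psmb8, Psmb9, Psmb10, Psme1 and Psme2), 17 genes of the 19S cap and 7 assembly factors. The others were 3 further activators or inhibitors (Psme3, Psme4 and Psmf1), 2 core genes restricted to testis or thymus (Psma8 and Psmb11), and 2 genes that share the name, Psmc3ip, which is no subunit, and Psme2b, an intronless copy of Psme2. Another 4 rows with such a symbol are pseudogenes, held 0 to 2 counts per library and were left out.

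Poly-A RNA of the whole heart of the mouse had been sequenced in 5 libraries. Mice of the HFHS group (n = 3) had eaten food rich in fat and sucrose, and those of the chow group (n = 2) standard chow, each for 18 weeks. Mice of both groups had received 1 intravenous dose of iron dextran 48 hours before the hearts were flushed with saline and taken, and no library without iron was analysed here, so the values compare the diets in iron-treated mice. Strain, sex and age were not stated in the labels, and nothing says that the libraries of a group came from separate mice, so p-values measure the spread between these libraries, which may be technical.

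The proteasome degrades proteins tagged with ubiquitin. Its barrel-shaped 20S core has outer rings of alpha subunits, which gate the entrance, and inner rings of beta subunits, of which Psmb5, Psmb6 and Psmb7 carry the cutting sites. The 19S cap receives the tagged protein, removes ubiquitin and feeds the unfolded chain into the core with a ring of ATPases. Interferon gamma induces the immune subunits Psmb8, Psmb9 and Psmb10, which replace Psmb5, Psmb6 and Psmb7 in newly built cores, and Psme1 and Psme2, which form the 11S activator. In striated muscle the proteasome renews sarcomere proteins, and the transcription factor Nfe2l1 raises the transcription of subunit genes when proteasome capacity falls short.

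Libraries held 14362766 to 17774735 counts. The 50 genes together took 0.295% to 0.302% of the counts in the HFHS libraries and 0.367% to 0.371% in the chow libraries. Levels below are CPM, counts scaled to the depth of the library with TMM, a normalization on the bulk of the genes, and log2 fold changes are HFHS minus chow from edgeR's quasi-likelihood test, called at a Benjamini-Hochberg adjusted p under 0.05 over 14221 tested genes. Markers of cardiomyocytes were abundant, as the heart label says: their sum reached 54150 to 56910 CPM in HFHS and 43270 to 49350 CPM in chow, and those of thymus and lung stayed under 0.5 CPM.

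Of the 49 genes tested, 31 fell and 4 rose in the HFHS hearts (edgeR, adjusted p under 0.05), beside 18.7% of all tested genes lower and 19.4% higher. The median log2 fold change was -0.33 over the proteasome genes and -0.01 over all tested genes. All 3 HFHS libraries lay below both chow libraries for 35 of the 50 genes, where this held for 29.4% of all tested genes. They lay above both for 6 of the 50 genes, and for 4146 of the 14221 tested genes. The gene left untested, Psmb11, the thymus-specific beta subunit, had 0 counts in every library, which allows up to 0.169 to 0.209 CPM (3 counts of each library, counting error only).

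The fold changes moved with the length of the genes' transcripts, and this bears on each count below. Across all 14221 tested genes the log2 fold change had a Spearman correlation of 0.48 with the length of the principal transcript (the main isoform of the annotation). Across the 49 proteasome genes it was 0.69. With the exon length in the files the correlations were 0.43 and 0.37, and with the median transcript length 0.253 and 0.07. These are descriptions across genes of the same 5 libraries, and genes are not independent replicates. With the genes split into 4 equal groups by that length, in the shortest group, up to 1809 bases, the median was -0.37 over all tested genes and -0.39 over the 37 proteasome genes there. In the next group, up to 2892 bases, it was -0.08 over all genes and -0.03 over 7 proteasome genes. Split by exon length instead, the shortest group had -0.35 over all genes and -0.37 over 26 proteasome genes. In the next exon-length group, up to 4009 bases, the medians parted, with -0.09 over all genes and -0.39 over 14 proteasome genes. A set of 3 further fits therefore carried offsets for each library that remove a smooth trend on length and GC content, with length taken as the exon length in the files, the median transcript length or the principal transcript length. In them 15, 22 and 7 proteasome genes fell and 4, 5 and 4 rose, in this order. All tested genes were called lower in 14.9%, 16.5% and 13.7% and higher in 15.9%, 20% and 15.0%. The share of proteasome genes called lower thus lay near the background with the principal transcript length. Psma3, Psma7, Psmb3, Psmb4, Psmb8, Psmb9 and Psme2 were called lower in all 4 fits, and Psmd1, Psmd11 and Psme3 higher in all 4. Whether the length trend comes from the hearts or from the libraries was not tested.

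**Figure D1:**
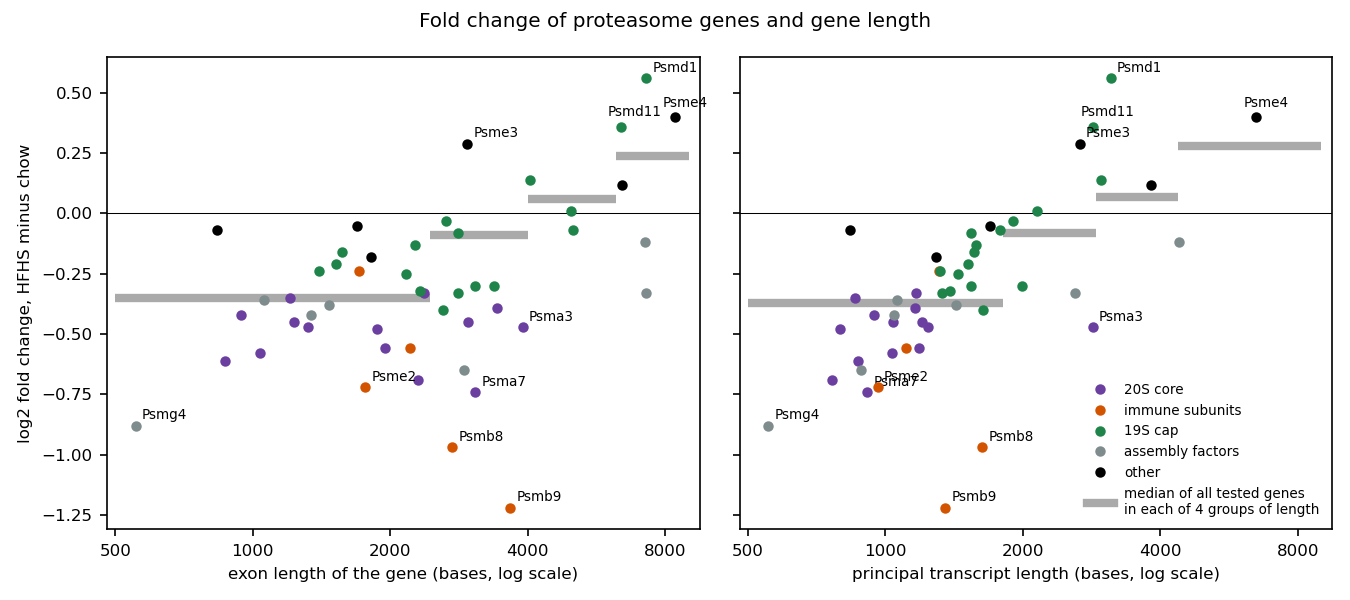
Log2 fold change (HFHS minus chow) of each tested proteasome gene, 1 point a gene, against the exon length in the files (left) and the principal transcript length (right), in bases on log axes; grey bars give the median of all tested genes in each of 4 groups of length, drawn between 500 and 9000 bases. On the right, 37 of the 49 genes lie in the shortest group, whose grey bar is at -0.37, while Psmd1, Psmd11, Psme3 and Psme4 lie above 0 among the longer ones.

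All 14 genes of the 20S core fell, by 0.33 to 0.74 on the log2 scale (edgeR, median -0.47). The HFHS and chow libraries overlapped for none of them, where they overlapped for 5895 of all 14221 tested genes. Summed over the core, the libraries held 940 CPM, 928 CPM and 971 CPM in HFHS and 1339 CPM and 1328 CPM in chow, a level 29.0% lower (946.7 ± 22.2, SD, n = 3, against 1334 ± 7.37, SD, n = 2). With 3 against 2 libraries an exact two-sided permutation test of 1 such sum cannot go below 0.2, so sums and ratios are given without a test. Core genes have short transcripts, with a median principal length of 1039 bases against 2892 over all tested genes. With offsets on exon length, transcript length and principal transcript length 6, 14 and 4 of the 14 were called lower, and the median was -0.21, -0.38 and -0.09.

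Among the alpha subunits Psma7, a ring subunit, stood at 61.4 CPM, 57.6 CPM and 63.0 CPM in the HFHS libraries and 103.6 CPM and 98.5 CPM in the chow libraries. The groups lay far apart, and the log2 fold change was -0.74 (SE 0.0761, edgeR adjusted p = 5.67e-06), or -0.31 with the principal-length offsets (adjusted p = 0.00523). Psma3, another alpha subunit with the longest principal transcript of the core (2846 bases), stood at 71.3 CPM, 70.3 CPM and 73.5 CPM in HFHS against 100.3 CPM and 98.9 CPM in chow. Its log2 fold change of -0.47 (adjusted p = 0.000155) was -0.41 with the principal-length offsets (adjusted p = 0.000723), so it hardly moved. The other 5 alpha genes, Psma1, Psma2, Psma4, Psma5 and Psma6, fell by 0.33 to 0.47 without offsets, and none of them was called with the principal-length offsets (log2 fold changes -0.12 to 0.06).

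The 4 structural beta genes, which hold the inner rings together, fell by 0.35 to 0.69. Psmb3 stood at 46.1 CPM, 44.1 CPM and 52.2 CPM in HFHS and 75.2 CPM and 78.5 CPM in chow, a log2 fold change of -0.69 (SE 0.0861, edgeR adjusted p = 2.78e-05). Psmb1 stood at 82.2 CPM, 82.3 CPM and 86.8 CPM in HFHS and 128.5 CPM and 121.4 CPM in chow, a log2 fold change of -0.58 (adjusted p = 3.33e-05). The HFHS libraries were the lower ones for both. Psmb3 (-0.25, adjusted p = 0.0443) and Psmb4 (-0.21, adjusted p = 0.0397) were still called lower with the principal-length offsets, and Psmb1 (-0.14, adjusted p = 0.151) and Psmb2 (0.09, adjusted p = 0.446) were not.

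The promoters of 2 of the standard catalytic genes are shown because they carry the letters to which Nfe2l1 and its relatives are known to bind. These are 250 bases before the start of Psmb5 (chr14:54617996-54618245, minus strand) and of Psmb6 (chr11:70525107-70525356, plus strand), from RefSeq, build GRCm38.p6, written 5′ to 3′. The capitals mark the core of the antioxidant response element, TGACNNNGC.
Psmb5: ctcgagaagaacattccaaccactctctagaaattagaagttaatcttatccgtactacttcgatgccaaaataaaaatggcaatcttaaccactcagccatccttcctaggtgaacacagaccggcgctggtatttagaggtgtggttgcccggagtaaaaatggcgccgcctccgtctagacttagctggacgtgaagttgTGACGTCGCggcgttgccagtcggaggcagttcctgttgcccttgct
Psmb6: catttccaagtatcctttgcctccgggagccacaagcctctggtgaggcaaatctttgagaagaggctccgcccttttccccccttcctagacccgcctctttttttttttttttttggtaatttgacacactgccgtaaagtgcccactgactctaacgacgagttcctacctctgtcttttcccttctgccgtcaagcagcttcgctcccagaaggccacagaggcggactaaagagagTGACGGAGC
In Psmb5 the match begins 47 bases and in Psmb6 9 bases before the start. On either strand, these letters occurred in the 250 upstream bases of 10.2% of 32851 RefSeq promoters. Promoters were found for 42 of the 50 genes, and 5 held a match: Psmb5, Psmb6, Psmc6, Psmd12 and Psmd9. A match is a run of letters and no measurement of binding.

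Psmb5, the chymotrypsin-like subunit, stood at 39.4 CPM, 39.6 CPM and 46.1 CPM in HFHS and 58.3 CPM and 69.4 CPM in chow (log2 fold change -0.61, SE 0.0982, edgeR adjusted p = 0.000231). Psmb6, the caspase-like subunit, stood at 65.3 CPM, 62.4 CPM and 79.1 CPM in HFHS and 93.3 CPM and 99.0 CPM in chow (-0.48, adjusted p = 0.00127). Psmb7, the trypsin-like subunit, stood at 92.6 CPM, 87.2 CPM and 83.0 CPM in HFHS and 120.9 CPM and 108.5 CPM in chow (-0.39, adjusted p = 0.00156). For all 3 genes every HFHS library was below both chow libraries. Psmb7 shares 405 exon bases, 11.8% of its exon length, with Nek6 on the opposite strand, whose reads may not be told apart from its own. The principal-length offsets ended the calls of all 3, with log2 fold changes of -0.18, -0.04 and 0.03 in this order.

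Of the 5 immune subunits 4 fell, beside 18.7% of all tested genes. Psmb8, Psmb9, Psme1 and Psme2 fell by 0.56 to 1.22 on the log2 scale, and Psmb10 did not pass the test. Their sum was 152 CPM, 132 CPM and 138 CPM in HFHS and 217 CPM and 213 CPM in chow, which is 34.6% lower. The same 4 genes were called lower with offsets on exon length and on transcript length, beside 14.9% and 16.5% of all tested genes. With those on principal transcript length 3 of them, all but Psme1, were called lower, beside 13.7%.

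Psmb8, also called LMP7, replaces Psmb5. It stood at 10.3 CPM, 8.76 CPM and 8.18 CPM in HFHS and 19 CPM and 16.6 CPM in chow, so both chow libraries held well above the highest HFHS library. The log2 fold change was -0.97 (SE 0.132, edgeR adjusted p = 6.47e-05), and it was -0.74 with the principal-length offsets (adjusted p = 0.0011). Psmb8 was the 1 immune subunit whose upstream bases held the letters of a gamma-activated site, TTCNNNGAA. In the exon coordinates deposited with the counts these bases lie within an exon, and Psmb8 starts earlier, at base 34197721. The match is shown in capitals within the plus strand of chr17:34198088-34198116 (RefSeq, GRCm38.p6).
Psmb8: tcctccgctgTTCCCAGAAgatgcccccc
These letters read the same on both strands and occurred in 7.02% of the 32851 promoters. Among the proteasome genes Psmg1 was the other one with a match. The letters GAAANNGAA, the core of the interferon-stimulated response element, occurred on either strand in 7.13% of promoters. They occurred in those of Psmb3, Psmd4 and Psmd9, and in none of the bases searched for the 5 immune subunits. All 250 bases searched for Psmb9 also lie within exons, and Psmb9 starts further upstream, at base 34187764. Those of Psme1, Psme2 and Psmb10 held up to 139, 92 and 52 exon bases. Absence there does not speak for bases before the deposited starts. No matches of the 3 motifs overlapped.

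Psmb9, also called LMP2, replaces Psmb6. It stood at 4.87 CPM, 2.94 CPM and 4.33 CPM in HFHS (78, 41 and 64 counts) and 11.7 CPM and 7.28 CPM in chow (216 and 131 counts). The chow libraries differed from each other, yet both exceeded every HFHS library, and the log2 fold change of -1.22 (SE 0.233, edgeR adjusted p = 0.000908) was the lowest among the proteasome genes. It was -0.84 without chow replicate 1 (adjusted p = 0.0195) and -0.91 with the principal-length offsets (adjusted p = 0.0102). Psmb10, also called MECL-1, replaces Psmb7. It stood at 19.4 CPM, 20.6 CPM and 24.7 CPM in HFHS and 27.8 CPM and 23.2 CPM in chow, and the groups overlapped. Its log2 fold change was -0.24 (95% interval -0.48 to 0.00, adjusted p = 0.135). The test was passed without HFHS replicate 3 (-0.35, adjusted p = 0.0388) or without chow replicate 2 (-0.37, adjusted p = 0.0485), and the offsets on exon and principal length gave 0.04 and 0.08.

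**Figure D2:**
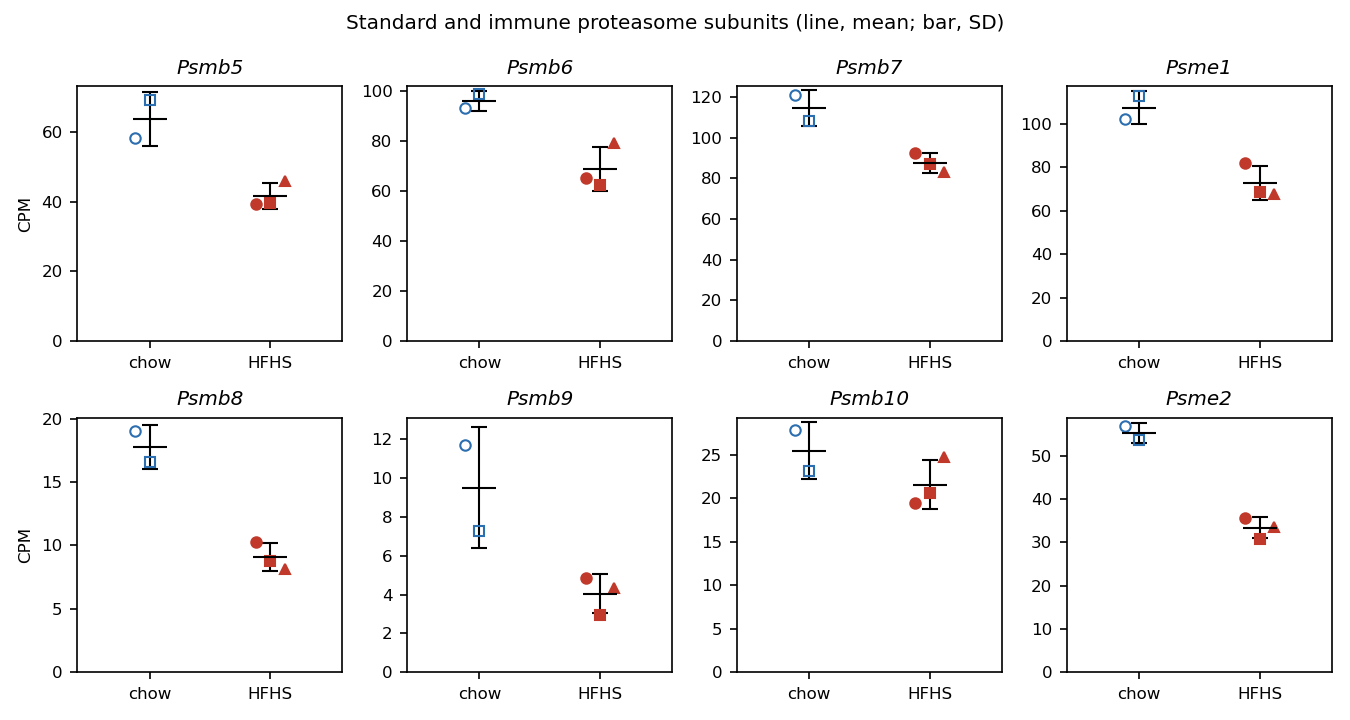
CPM of the 3 standard catalytic subunits and, below each, the immune subunit that replaces it, with Psme1 and Psme2 in the last column; points are libraries (open, chow; filled, HFHS; circle, square and triangle for replicates 1, 2 and 3), lines the means and bars the SD. In 7 panels all HFHS points lie below both chow points, and in the panel of Psmb10 they overlap.

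Per kilobase of principal transcript, the 3 immune catalytic genes together reached 12, 11.7 and 12.1 for every 100 of the 3 standard ones in HFHS and 14.4 and 11.2 in chow. The groups overlapped, so the share of immune among catalytic subunit transcripts did not separate the diets. Psmb8 per 100 Psmb5 was 14.0, 11.8 and 9.49 in HFHS and 17.4 and 12.8 in chow. Psmb9 per 100 Psmb6 was 4.40, 2.78 and 3.23 in HFHS and 7.40 and 4.34 in chow. Psmb10 per 100 Psmb7 was 18.6, 20.9 and 26.4 in HFHS and 20.4 and 18.9 in chow. Each of these ratios overlapped between the groups as well.

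Psme1 and Psme2 encode the alternating subunits of the 11S activator, a ring that opens the core without ATP. Psme1 stood at 81.8 CPM, 68.5 CPM and 67.7 CPM in HFHS and 102.2 CPM and 112.8 CPM in chow (log2 fold change -0.56, SE 0.0913, edgeR adjusted p = 0.000258). Psme2 stood at 35.7 CPM, 30.9 CPM and 33.6 CPM in HFHS and 56.8 CPM and 53.6 CPM in chow (-0.72, SE 0.0880, adjusted p = 2.38e-05). The groups did not overlap for either gene. With the principal-length offsets Psme2 was called lower (-0.31, adjusted p = 0.0132) and Psme1 was not (-0.19, adjusted p = 0.174). The copy Psme2b held 1.94 to 2.54 CPM and did not pass the test (-0.07, adjusted p = 0.86), and how reads shared by the 2 copies were counted is not stated.

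The genomic neighbours were read for their position alone. Psmb9 (chromosome 17, 34181988 to 34187764, minus strand) and Psmb8 (34197721 to 34201454, plus strand) flank Tap1 in the class II region of the major histocompatibility complex, and Tap2 follows, in build GRCm38. Tap1 and Tap2, which carry peptides into the endoplasmic reticulum, did not pass the test (log2 fold changes -0.36 and -0.27, adjusted p = 0.0703 and 0.0676), while all HFHS libraries lay below both chow libraries for each. Psmb9 shares 212 exon bases with Tap1 on the opposite strand, 5.8% of its exon length, and since the strand setting is not given, reads of those bases cannot be told apart. Psme1 (chromosome 14, 55578123 to 55581529) and Psme2 (55587441 to 55591113) flank Emc9, with Rnf31 and Irf9 beyond Psme2. Emc9, a membrane insertion subunit gene, fell (-0.60, adjusted p = 0.000291) but was not called with the principal-length offsets (-0.17, adjusted p = 0.209). Irf9, a transcription factor of the interferon response, fell (-0.53, adjusted p = 0.00163) and was called with them too (-0.47, adjusted p = 0.00461). Rnf31 did not pass the test (0.09, adjusted p = 0.553).

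Markers of several other cell types moved with these genes. Their counts stand beside 18.7% of all tested genes called lower and 19.4% called higher. All 10 macrophage markers fell in HFHS, with a summed level of 180 to 212 CPM of total counts in HFHS and 469 to 543 CPM in chow, and none was at 0. Of 9 markers of T, B and NK cells 3 were tested and 1 fell, with sums of 9.40 to 13.1 CPM and 14.0 to 19.1 CPM. All 8 fibroblast markers (844 to 909 CPM against 1344 to 1470 CPM), 6 of 8 endothelial markers (1184 to 1204 CPM against 1978 to 2182 CPM) and all 7 red blood cell markers (250 to 524 CPM against 1487 to 1703 CPM) also fell. Pericyte and smooth muscle markers were mixed: of 7, 3 fell and 1 rose (1243 to 1307 CPM against 1423 to 1429 CPM). Of 8 cardiomyocyte markers 4 rose and 2 fell. With the principal-length offsets 10 macrophage, 7 fibroblast, 7 endothelial and 7 red blood cell markers were called lower, beside 13.7% of all tested genes. Cardiomyocyte markers then gave 4 higher and 0 lower, beside 15.0% higher over all tested genes. Pericyte and smooth muscle markers gave 1 higher and 2 lower, and T, B and NK cell markers 0 of either. The part of these cell types in the lower level of immune or other proteasome genes was not tested. In RNA of a whole heart, fewer cells of a type and less RNA per cell cannot be told apart.

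Of the 17 genes of the 19S cap 8 fell, 2 rose and 7 did not pass the test, with a median log2 fold change of -0.16 (edgeR). Of all tested genes 18.7% were called lower and 19.4% higher, so the 2 higher genes did not exceed the background. Summed, the cap held 1500 CPM, 1497 CPM and 1472 CPM in HFHS and 1591 CPM and 1578 CPM in chow, 5.96% lower. Per kilobase of principal transcript it reached 92.7, 93.7 and 88.4 for every 100 of the 20S core in HFHS and 71.6 and 71.4 in chow, so cap transcripts were the more abundant relative to the core in every HFHS library. The longer transcripts of the cap (median 1581 bases) go with the length trend described above, and the part of that trend in the ratio was not tested. The count of 8 lower genes became 4 without HFHS replicate 1 or 2, and 3, 2 and 0 with offsets on exon, transcript and principal transcript length, with which 3 genes were called higher each time.

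Of the 6 ATPases of the cap base, 4 fell: Psmc1, Psmc3, Psmc4 and Psmc5. Psmc3 stood at 162.4 CPM, 154.1 CPM and 155.0 CPM in HFHS and 208.8 CPM and 205.0 CPM in chow (log2 fold change -0.40, SE 0.0688, edgeR adjusted p = 0.00044). Psmc5 stood at 72.1 CPM, 74.0 CPM and 74.8 CPM in HFHS and 86.7 CPM and 87.1 CPM in chow (-0.24, adjusted p = 0.0182). The libraries of each group lay close together for both genes. Psmc3 shares 215 exon bases, 8.2% of its exon length, with Slc39a13 on the opposite strand. Psmc5 lost the call without HFHS replicate 1 (adjusted p = 0.0703) or 2 (adjusted p = 0.0647), and its log2 fold change turned to 0.11 and 0.07 with the exon and principal-length offsets. Among the fits that left out an HFHS library, Psmc1 lost the call without replicate 1, 2 or 3, and Psmc4 without replicate 1 or 2. With any 1 library left out, chow ones included, log2 fold changes ran from -0.25 to -0.17 for Psmc1 and -0.30 to -0.20 for Psmc4. Neither was called with any of the 3 offsets. Psmc2 (-0.07) and Psmc6 (-0.16) did not pass, and Psmc6 was called higher with the exon-length offsets (0.23, adjusted p = 0.0335). None of the 6 was called with the principal-length offsets.

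The 3 further base subunits went different ways. Psmd1, a scaffold of the base also called RPN2, stood at 149.6 CPM, 149.0 CPM and 132.4 CPM in HFHS and 102.4 CPM and 92.7 CPM in chow. Every HFHS library was above both chow libraries, and the log2 fold change of 0.56 (SE 0.0826, edgeR adjusted p = 0.000121) was the highest among the proteasome genes. It was 0.39, 0.69 and 0.54 with the offsets on exon, transcript and principal transcript length, and each passed. Psmd2, the partner scaffold RPN1, stood at 192.2 CPM, 193.9 CPM and 178.2 CPM in HFHS and 170.7 CPM and 170.8 CPM in chow and did not pass (0.14, adjusted p = 0.143). Psmd4, the ubiquitin receptor RPN10, stood at 62.9 CPM, 68.9 CPM and 66.0 CPM in HFHS and 83.4 CPM and 82.0 CPM in chow (-0.33, adjusted p = 0.00362), and was not called with the principal-length offsets (-0.02, adjusted p = 0.867).

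Of the 8 lid subunits 3 fell (Psmd6, Psmd8 and Psmd13), 1 rose (Psmd11) and 4 did not pass (Psmd3, Psmd7, Psmd12 and Psmd14, the last of which removes ubiquitin from the substrate). Psmd11, also called RPN6, stood at 70.1 CPM, 69.5 CPM and 65.6 CPM in HFHS and 53.8 CPM and 52.7 CPM in chow. All HFHS libraries were higher, the log2 fold change was 0.36 (SE 0.0777, edgeR adjusted p = 0.00219), and it was 0.23, 0.51 and 0.38 with the 3 offsets, each past the test. The 250 bases before its start (chr11:80428365-80428614, plus strand, RefSeq GRCm38.p6) are shown as those of a subunit gene that rose, and hold none of the 3 motifs.
Psmd11: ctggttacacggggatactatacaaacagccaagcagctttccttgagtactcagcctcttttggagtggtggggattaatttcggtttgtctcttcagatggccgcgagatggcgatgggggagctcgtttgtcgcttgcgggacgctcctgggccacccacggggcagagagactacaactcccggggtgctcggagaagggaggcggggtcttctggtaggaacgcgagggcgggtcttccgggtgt
Psmd13 stood at 50.9 CPM, 48.6 CPM and 51.6 CPM in HFHS and 62.2 CPM and 62.0 CPM in chow (-0.30, adjusted p = 0.00687), and was not called with the principal-length offsets (-0.16, adjusted p = 0.124). It shares 342 exon bases with Sirt3 on the opposite strand, 10.1% of its exon length. Without chow replicate 1, Psmd6 and Psmd8 were not called, and Psmd8 also lost the call without HFHS replicate 1 or 2. With any 1 library left out, log2 fold changes ran from -0.37 to -0.26 for Psmd6 and -0.37 to -0.23 for Psmd8.

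**Figure D3:**
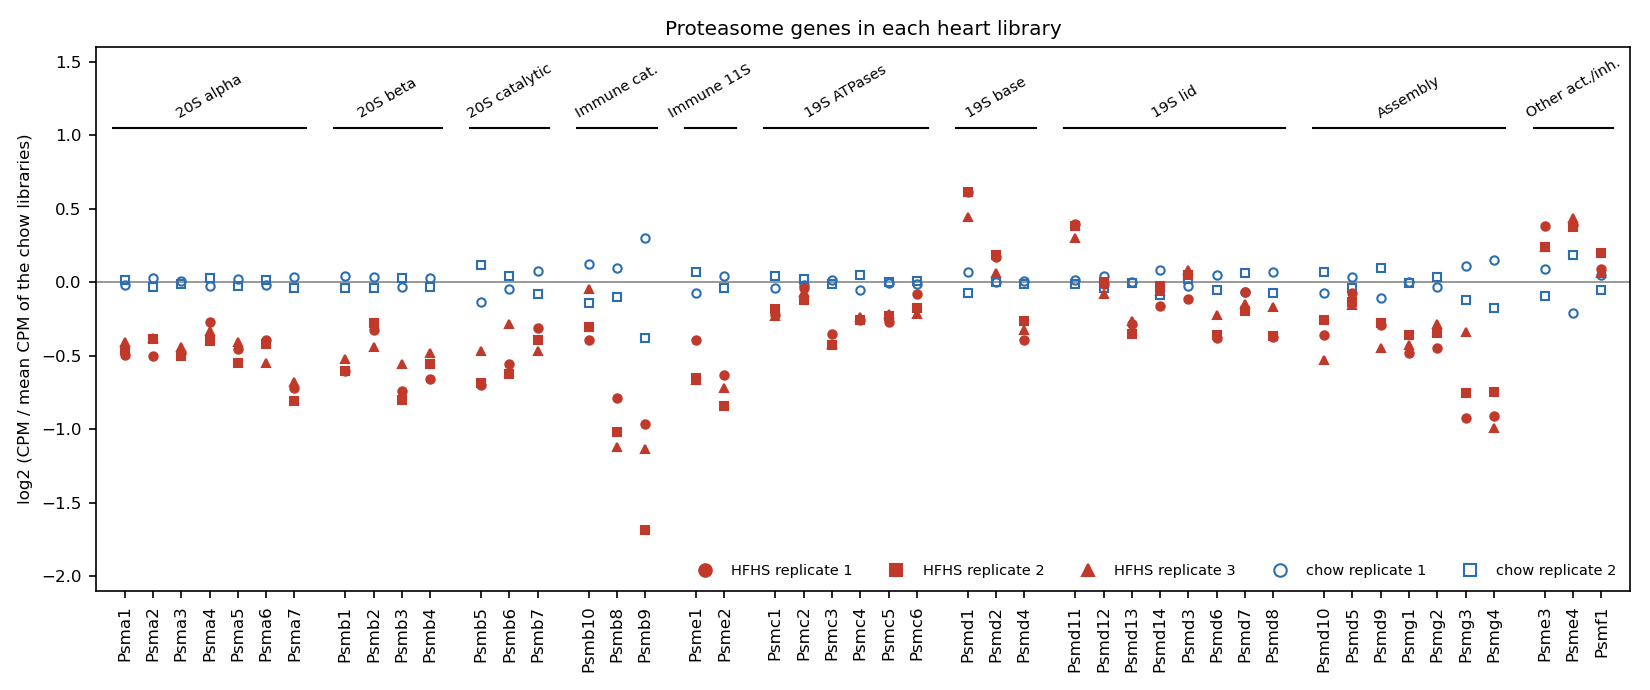
Level of each subunit, assembly factor and further activator in the 5 libraries, as log2 of CPM over the mean CPM of the chow libraries; open symbols are chow and filled symbols HFHS, with a shape for each replicate. The HFHS points of all 14 core genes lie below the chow points, those of the 19S cap lie below the chow points for 10 of 17 genes and above them for 3, and Psmd1, Psmd11, Psme3 and Psme4 lie above.

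Assembly factors are chaperones that bring subunits together and leave the finished particle. All 7 had every HFHS library below both chow libraries, where this held for 29.4% of all tested genes. Of the 7, 5 fell, beside 18.7% of all tested genes. These were Psmg1, Psmg2, Psmg3 and Psmg4, which build the core, and Psmd9, which helps to build the cap base. The base chaperones Psmd5 (log2 fold change -0.12, adjusted p = 0.378) and Psmd10 (-0.38, adjusted p = 0.0579) did not pass. Psmg4 stood at 2.44 CPM, 2.73 CPM and 2.30 CPM in HFHS and 5.09 CPM and 4.06 CPM in chow (-0.88, SE 0.230, edgeR adjusted p = 0.00789). Psmg1 stood at 12.2 CPM, 13.3 CPM and 12.7 CPM in HFHS and 17.1 CPM and 17.1 CPM in chow (-0.42, adjusted p = 0.00793). Psmd9 lost the call without HFHS replicate 1, 2 or 3, Psmg3 without HFHS replicate 1 or 2, and Psmg2 without HFHS replicate 1. With any 1 library left out, log2 fold changes ran from -0.43 to -0.23 for Psmd9, -0.83 to -0.53 for Psmg3 and -0.39 to -0.31 for Psmg2. The count of 5 was 2 without HFHS replicate 1, 3 without HFHS replicate 2 or either chow replicate, and 2, 2 and 0 with offsets on exon, transcript and principal transcript length. Psmg4 lost the call without chow replicate 1 (adjusted p = 0.0841).

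The activators outside the immune pair were higher in the HFHS hearts. Psme3, the nuclear relative of Psme1 also called PA28 gamma, stood at 64.8 CPM, 58.6 CPM and 58.9 CPM in HFHS and 52.9 CPM and 46.6 CPM in chow (log2 fold change 0.29, SE 0.0876, edgeR adjusted p = 0.0181). The call was lost without HFHS replicate 1 (0.24, adjusted p = 0.0815), without chow replicate 2 (0.20, adjusted p = 0.143) and when libraries were scaled by their totals (0.19, adjusted p = 0.0935). Psme4, also called PA200, stood at 330.7 CPM, 326.8 CPM and 341.4 CPM in HFHS and 218.2 CPM and 286.6 CPM in chow (0.40, SE 0.0964, adjusted p = 0.0047). The chow libraries differed by more than the HFHS ones, and the value was 0.22 without chow replicate 1 (adjusted p = 0.046) and 0.61 without chow replicate 2 (adjusted p = 1.74e-05). With the exon and principal-length offsets Psme4 was not called (0.22, adjusted p = 0.102, and 0.15, adjusted p = 0.276). Psmf1, an inhibitor of the core in the test tube, did not pass (0.12, adjusted p = 0.44). Per kilobase, Psme1 reached 302, 280 and 276 for every 100 of Psme3 in HFHS and 463 and 580 in chow, without overlap between the groups. Psme1 has the shorter principal transcript (1112 bases against 2664), and the part of the length trend in this ratio was not tested. With the principal-length offsets Psme1 was not called lower (-0.19, adjusted p = 0.174).

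**Figure D4:**
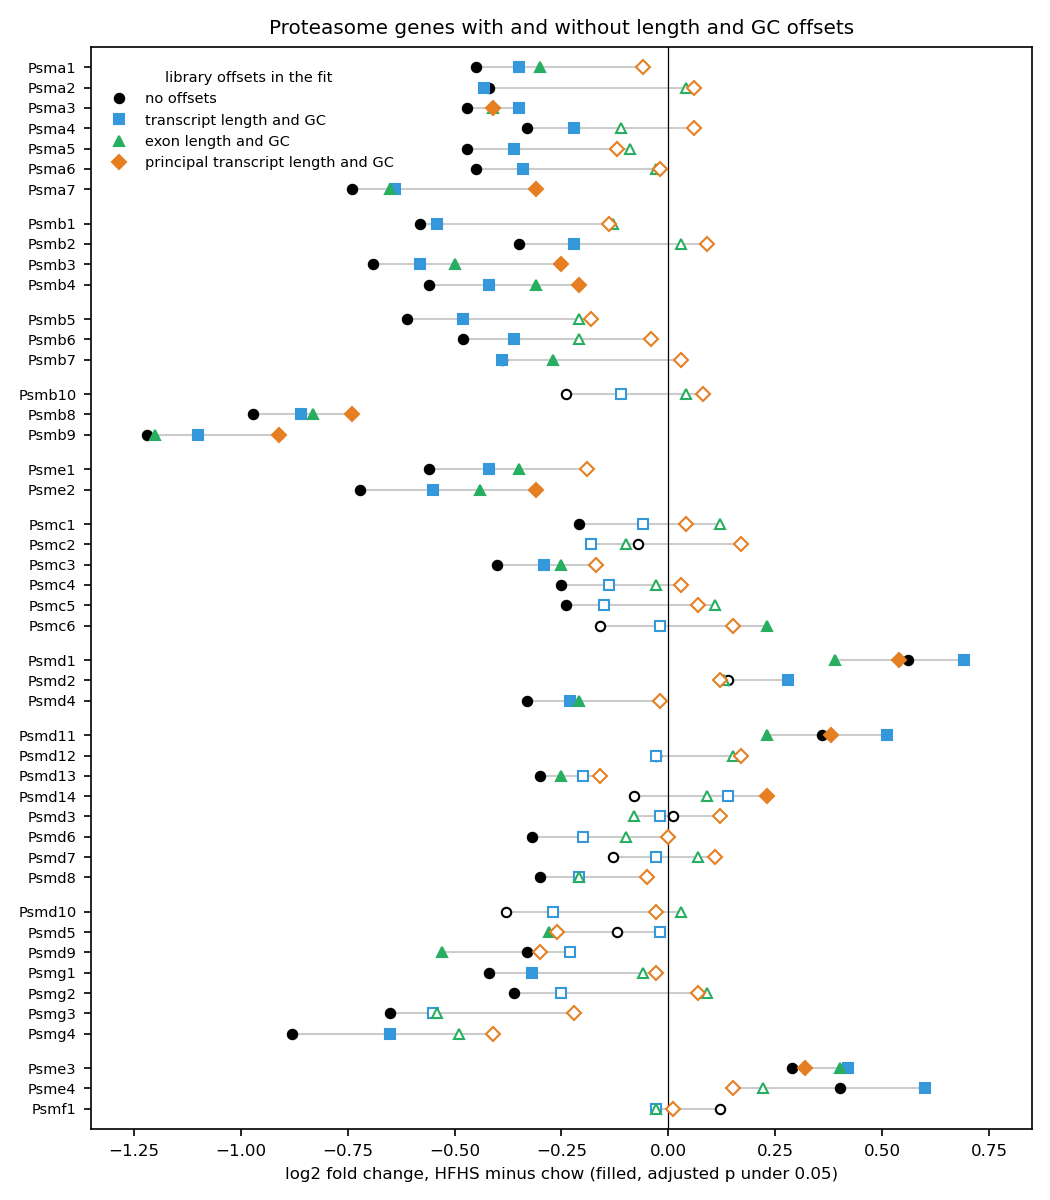
Log2 fold change (HFHS minus chow) of each gene in 4 fits, without offsets (circles) and with library offsets on transcript length (squares), exon length (triangles) and principal transcript length (diamonds), each with GC content; filled symbols have an adjusted p under 0.05. Most core, cap and assembly genes move toward 0 with the principal-length offsets, while Psmb8 and Psmb9 stay below -0.7 and Psmd1 stays at 0.54.

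Per kilobase of principal transcript, the levels of the genes spanned a wide range in the chow hearts. Psmc3 was the highest at 126.5 CPM per kilobase, followed by Psmb1 at 120.6 and Psmb6 at 120.5, and most core genes lay between 69.1 and 120.6, with Psma3 (35.0) and Psma5 (41.3) below. In the HFHS hearts Psmc3 was again the highest, at 96.1, followed by Psmb6 at 86.4. Among immune catalytic genes Psmb10 reached 19.4 CPM per kilobase in chow, Psmb8 10.9 and Psmb9 7.02, and their order was the same in HFHS (16.5, 5.58 and 2.99). Psma8, an alpha subunit of the testis, held 0.541 to 1.81 CPM and did not pass the test (log2 fold change -0.05, adjusted p = 0.952). Psmc3ip, a recombination protein that binds Psmc3, held 1.44 to 2.44 CPM and did not pass either (-0.18, adjusted p = 0.676).

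Partners of the proteasome that the symbol rule does not take went both ways: of 17 such genes 4 fell and 6 rose, beside 18.7% lower and 19.4% higher among all tested genes, shares to be read beside each list below as well. Sem1, a small lid subunit, stood at 51.4 CPM, 50.4 CPM and 52.2 CPM in HFHS and 96.4 CPM and 101.0 CPM in chow (log2 fold change -0.94, edgeR adjusted p = 4.67e-07), and -0.61 with the principal-length offsets (adjusted p = 8.33e-05). Pomp, the chaperone that completes the core, fell by 0.48 (adjusted p = 0.000179), and by 0.23 with those offsets (adjusted p = 0.0225). Ube3c and Usp14, a ligase and a ubiquitin-removing enzyme that sit on the cap, rose by 0.57 (adjusted p = 9.23e-05) and 0.39 (adjusted p = 0.00116), or 0.40 and 0.25 with those offsets, both past the test. Txnl1 and Akirin2 were the others that fell, and Ubqln4, Ecpas, Ipo9 and Rad23b the others that rose. These counts became 2 lower and 3 higher with the principal-length offsets, near the 13.7% and 15.0% of all tested genes, and the lower count was near the background without offsets too.

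Of 10 genes of proteasome gene regulation 6 rose and 0 fell at the adjusted threshold of edgeR. Nfe2l1, the factor that activates subunit genes, stood at 625 CPM, 668 CPM and 616 CPM in HFHS and 366 CPM and 358 CPM in chow. Its log2 fold change was 0.81 (SE 0.0699, adjusted p = 1.09e-06) and 0.62 with the principal-length offsets (adjusted p = 2.62e-05), and the groups lay far apart. Foxo3, a transcription factor of muscle protein breakdown, rose by 0.64 (adjusted p = 0.000242), or 0.31 with those offsets (adjusted p = 0.019). Vcp, which extracts tagged proteins and acts in Nfe2l1 processing, rose by 0.35 (adjusted p = 0.0013), or 0.30 with those offsets (adjusted p = 0.00429). Stat3 rose by 0.35 (adjusted p = 0.00243) but was not called with them (0.16, adjusted p = 0.102). Ddi2, the protease that cuts Nfe2l1, rose by 0.43 (adjusted p = 0.00447) but was at -0.01 with the principal-length offsets. Ngly1, which removes its sugars, did not pass (-0.13, adjusted p = 0.274), nor did Nfe2l2 (-0.08, adjusted p = 0.551). With the principal-length offsets 4 rose and 1 fell.

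Of 8 ubiquitin and activating enzyme genes 5 fell and 1 rose, and the counts were the same with the principal-length offsets, with Ube2d3 in place of Ubb. Rps27a, which encodes ubiquitin joined to a ribosomal protein, stood at 109.4 CPM, 107.4 CPM and 112.7 CPM in HFHS and 264.0 CPM and 254.5 CPM in chow, and fell by 1.24 (edgeR adjusted p = 3.91e-08), or 0.76 with those offsets (adjusted p = 4.58e-06). Uba1, the main activating enzyme, rose by 0.57 (adjusted p = 3.44e-05). Of 11 ubiquitin ligase genes of striated muscle 4 rose and 0 fell: Trim55 by 0.76 (adjusted p = 6.23e-06), Fbxo40 by 0.52 (adjusted p = 9.79e-05, or 0.28 with the offsets, adjusted p = 0.00699), Cul3 by 0.37 (adjusted p = 0.000808, or 0.22 with them, adjusted p = 0.0205) and Fbxo32 by 0.39 (adjusted p = 0.00302). Trim63, also called MuRF1, did not pass (0.03, adjusted p = 0.838). The ligase count was again 4 higher and 0 lower with the principal-length offsets, with Trim54 in place of Fbxo32 (0.09, adjusted p = 0.464).

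Of 12 genes of the interferon gamma axis and peptide loading 4 fell and 2 rose, the latter near the share of all tested genes. B2m, the light chain of class I molecules, stood at 160.6 CPM, 161.6 CPM and 137.0 CPM in HFHS and 357.2 CPM and 309.9 CPM in chow (log2 fold change -1.12, edgeR adjusted p = 4.36e-07), and -0.62 with the principal-length offsets (adjusted p = 0.000156). Irf1, a transcription factor that induces immune subunits, fell by 0.58 (adjusted p = 0.000276) and Ifngr1, a chain of the interferon gamma receptor, by 0.52 (adjusted p = 0.000479). Jak1, a kinase at that receptor, rose by 0.29 (adjusted p = 0.00583) but was not called with those offsets (0.08, adjusted p = 0.403). Tapbp fell and Erap1 rose as well, and Nlrc5 did not pass (-0.02, adjusted p = 0.934). With the principal-length offsets 6 fell and 1 rose.

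The pattern of log2 levels over the 5 libraries most like the mean of Psmb8, Psmb9 and Psmb10 was that of Vasp, Rap1a, Rnf145, Tspan14 and Emp1. Pearson correlations were 0.997 to 0.999 among 7948 genes at a mean of at least 10 CPM. A correlation leaves out the size of a change. The log2 fold changes were -0.25, -0.38, -0.35, -0.55 and -0.53 in this order, against -0.97, -1.22 and -0.24 for the 3 immune genes. Vasp did not pass the test (edgeR adjusted p = 0.0504). The likeness is a description over 5 libraries that differ in diet, with no test.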

How the data were processed

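Poly-A RNA of 5 mouse heart libraries was measured. The authors deposited raw counts per gene, 1 table per library on build GRCm38. The tools named, per the submitters' processing notes, are featureCounts (Subread 1.5.2), STAR 2.5.2b and Trimmomatic 0.36. Per the file headers, each table also gives exon coordinates, strand and exon length. No label or header gives the strand setting, the treatment of multi-mapped reads or the annotation release, so reads of paralogs, pseudogenes and overlapping genes are uncertain. Of 49315 gene IDs 49056 were found in GENCODE M21, which gave symbols and transcript lengths.

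Groups came from the sample titles. The quasi-likelihood test of edgeR 4.0.16 (R 4.3.3) was run on the counts after filterByExpr and TMM, with Benjamini-Hochberg adjustment. The test was tried on simulated data. Each SE is approximate, the log2 fold change over the root of its F statistic. Marker sums use total counts, other CPM the TMM-adjusted library sizes. Pairs of libraries differed by more than sampling noise (chi-square per degree of freedom 2.71 to 67.5). Length and GC trends were fitted per library with mgcv 1.9.3; the principal transcript length was chosen after seeing the data. Other alternatives were DESeq2 1.42.0, limma-voom 3.58.1, other scalings and filters, an adjusted p of 0.01, leaving out mitochondrially encoded genes or each library, and the replicate number as a block.

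Library values are given for the immune and standard catalytic subunits, the 2 genes of each class with the smallest p and, of each list of partner genes, up to 4 with the smallest p; genomic neighbours and further list genes were added by position or role. The members and lists were chosen with earlier results of these data known. Psmd5, Psmd9 and Psmd10 are counted as assembly factors, and Paaf1 of the partner list was not matched by symbol. Values of 3 genes of these lists are not reported here.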

Additional observations from a re-analysis of the deposited data

How the results depend on the processing

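Library offsets on length and GC content moved the counts most. The count of 31 genes called lower was 15 with exon length (14 of the 31, and Psmd5) and 7 with principal transcript length (all among the 31); the median log2 fold change of -0.33 became -0.092, -0.224 with transcript length, and 0.004 with principal transcript length, where it turned sign. Core genes called lower were 6 and 4 of 14 with exon and principal length, cap genes 3, 2 and 0 of 17 with exon, transcript and principal length, and assembly factors 2, 2 and 0 of 7. Psmb7 turned to 0.034 with principal length, and Psmc5 to 0.11 and 0.071 with exon and principal length. Scaling by library totals shifted the median of all tested genes to -0.106 (3429 lower and 2053 higher calls, against 2661 and 2756) and that of the proteasome genes to -0.426; upper-quartile factors gave -0.371 (2973 lower and 2477 higher over all genes). At an adjusted p of 0.01, 4 cap genes and 2 assembly factors were lower, and DESeq2 called 3 assembly factors. Leaving out 1 library gave medians of -0.36 to -0.308, 24 to 30 genes lower, 3 to 4 higher, 14 core genes in each case, 4 to 5 immune subunits, 4 to 7 cap genes and 2 to 4 assembly factors; a lone chow library was assumed to vary like the others. The cause was not tested.

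Replicate numbers gave no sign of pairing (correlations of 0.035 and 0.026 between same-numbered libraries over genes). With the replicate block 30 genes were lower and 4 higher, and Psmb10 passed the test (-0.348, edgeR adjusted p = 0.0205). HFHS replicate 3 has no chow library of its number, so it adds nothing to the diet contrast in that fit. The block is thus no separate check from the fit without HFHS replicate 3, which also called 30 genes lower. The other size factors, filters and limma-voom left every count within 1.5 times its value. Genes under about 10 CPM, such as Psmb9, Psmg3 and Psmg4, rest on few counts, and 2 chow libraries limit every comparison.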
